A study of Mus musculus with 47 samples.

Results

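Primed sites are regions of liver chromatin that carried H3K4me1 in every group of mice and neither H3K27ac nor H3K27me3 in any. They were taken from the H3K4me1 peaks of control male liver on the autosomes. A peak was kept when it overlapped a peak in each of the other 3 H3K4me1 lists by at least 1 bp and overlapped no peak in the 4 H3K27ac lists and no region in the 4 H3K27me3 lists. Of 68838 autosomal control male H3K4me1 peaks, 3048 met the rule, which is 4.43% of that list. The sites were thus selected on the presence and absence of called peaks in these lists, and those features are given here as a description and were not tested.

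H3K4me1 is a histone mark laid down at enhancers and on the flanks of promoters. H3K27ac is added where such an element is active, and H3K27me3 is written by the Polycomb enzymes Ezh1 and Ezh2 over repressed chromatin. An enhancer with H3K4me1 and no H3K27ac is called primed, because the element is already marked but lacks the acetylation of an active one.

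The study profiled the 3 marks by ChIP-seq in whole livers of mice 7 weeks old. Control mice were floxed (Ezh2 f/f), and the double knockout, E1/E2-KO, was Ezh1-/- with Ezh2 f/f deleted by Alb-Cre (AC+ in the labels). Alb-Cre acts in hepatocytes, so the other liver cells of E1/E2-KO mice lacked Ezh1 but kept Ezh2. Each mark was profiled in the livers of both sexes and both genotypes. The labels hold 47 samples, with 4 livers per mark and group (3 labelled for H3K4me1 in female E1/E2-KO mice, although the methods describe equal numbers in every group), and reads of a group were pooled into 1 peak list. There is therefore no replicate behind any value below, and no comparison between groups was tested. The 12 lists hold between 15603 and 69797 regions, and the depth behind them is not given in the sources used here. The H3K27ac lists ranged from 29359 peaks in control male to 55930 in E1/E2-KO male liver, so the control male list could exclude fewer sites than the others. As a check of tissue, 6 of 10 hepatocyte genes had H3K27ac within 1 kb of a start in all 4 lists, among them Alb, Ttr and Hnf4a. The share over all autosomal protein-coding genes is 47.6%, and the hepatocyte count was not tested against it. Tat had none in any list, and none of 4 skeletal muscle and none of 4 brain genes had it in all 4.

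The windows of 5 primed sites are given because they lie in introns of genes that the text describes and hold the most different motifs among such sites. Each is the 300 bp centred on the control male peak, on the plus strand of mm9, read from the NCBIM37 assembly. Capitals mark letters that match 1 of the 15 motifs searched, on either strand. The Magi1 window is chr6:93778519-93778818, the Magi3 window chr3:103896674-103896973, the Dennd1a window chr2:37940682-37940981, the Immp2l window chr12:42694301-42694600 and the Arntl window chr7:120397135-120397434.
Magi1 site: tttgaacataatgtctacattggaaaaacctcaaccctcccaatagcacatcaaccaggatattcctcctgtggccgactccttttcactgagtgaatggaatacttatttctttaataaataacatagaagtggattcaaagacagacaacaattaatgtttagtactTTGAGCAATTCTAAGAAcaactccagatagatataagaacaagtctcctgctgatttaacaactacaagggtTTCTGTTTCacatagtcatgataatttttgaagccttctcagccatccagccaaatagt
Magi3 site: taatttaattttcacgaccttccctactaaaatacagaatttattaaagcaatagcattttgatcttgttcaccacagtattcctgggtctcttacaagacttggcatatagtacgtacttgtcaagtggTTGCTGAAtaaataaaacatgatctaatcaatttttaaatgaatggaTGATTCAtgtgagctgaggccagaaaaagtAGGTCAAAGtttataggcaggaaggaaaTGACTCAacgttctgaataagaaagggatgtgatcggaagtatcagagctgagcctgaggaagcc
Dennd1a site: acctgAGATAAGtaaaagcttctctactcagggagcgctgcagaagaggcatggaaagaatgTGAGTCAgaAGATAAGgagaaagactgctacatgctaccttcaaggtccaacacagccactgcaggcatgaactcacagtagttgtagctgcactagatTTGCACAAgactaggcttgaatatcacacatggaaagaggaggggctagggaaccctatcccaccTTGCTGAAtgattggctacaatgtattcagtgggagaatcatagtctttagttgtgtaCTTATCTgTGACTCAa
Immp2l site: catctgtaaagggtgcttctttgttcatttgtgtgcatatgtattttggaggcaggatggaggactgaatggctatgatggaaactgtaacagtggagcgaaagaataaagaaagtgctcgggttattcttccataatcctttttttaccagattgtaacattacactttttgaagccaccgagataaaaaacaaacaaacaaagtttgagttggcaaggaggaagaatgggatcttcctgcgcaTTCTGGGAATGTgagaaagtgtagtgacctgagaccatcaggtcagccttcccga
Arntl site: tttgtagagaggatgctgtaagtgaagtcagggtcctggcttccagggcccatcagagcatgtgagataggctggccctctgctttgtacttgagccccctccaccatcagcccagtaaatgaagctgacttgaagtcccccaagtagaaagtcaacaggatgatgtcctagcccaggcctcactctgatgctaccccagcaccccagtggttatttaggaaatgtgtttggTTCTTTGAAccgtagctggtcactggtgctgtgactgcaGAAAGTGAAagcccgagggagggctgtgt
The Magi1 window holds C/EBP, STAT and IRF letters, and the Magi3 window holds C/EBP, partial DR1 and AP-1 letters. C/EBP, AP-1 and GATA letters occur in the Dennd1a window. The Dennd1a peak, chr2:37940733-37940931, is 199 bp wide and thus narrower than its window. The GATA letters at window bases 6 and 285 and the AP-1 letters at base 293 lie outside that peak. STAT and TEAD letters overlap each other in the Immp2l window, and the Arntl window holds STAT and IRF letters. A match is only a run of letters and was not tested for binding.

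Primed sites were a small share of the constant H3K4me1 peaks. Of the 68838 control male peaks, 27650 overlapped a peak in all 4 H3K4me1 lists, and the 3048 primed sites are part of these. H3K27ac in all 4 lists marked 9134 of the constant peaks, H3K27ac in some lists marked 11956, and H3K27me3 without H3K27ac marked 3512. A single list left out 2349 constant peaks that would otherwise have been primed. The E1/E2-KO male H3K27ac list alone accounted for 712 of them, the control female H3K27ac list for 524, the E1/E2-KO female H3K27ac list for 372 and the list of control male for 100. Among the H3K27me3 lists, E1/E2-KO male alone left out 338, control male 214, control female 51 and E1/E2-KO female 38. Among the H3K27ac lists, the shortest left out the fewest and the longest the most, but the order between them did not follow length. The H3K27me3 counts did not follow the number of regions. The list with the most autosomal regions, control female with 17188, left out 51, while E1/E2-KO male with 15565 left out 338. By bases covered on all chromosomes, control male held 766 Mb and E1/E2-KO male 750 Mb. Control female held 728 Mb and E1/E2-KO female 707 Mb. Both male lists thus covered more and left out more than both female lists, though the order between the male lists was reversed. The part of these counts in the result was not tested.

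The edge of the rule was narrow. The smallest distance of a primed site to H3K27ac was 1 bp, where the peaks touch without sharing a base, and 149 primed sites lay within 50 bp of an H3K27ac peak. On the other side of the edge, 166 of 11250 constant peaks without H3K27me3 were left out by 50 bp of H3K27ac or less, down to 1 bp. The excluded peaks as a whole shared a median of 72.3% of their length with H3K27ac. For H3K27me3, the closest primed site was 21 bp away and 39 lay within 400 bp, while 3451 of the 3512 sites excluded by H3K27me3 alone lay inside a region over their whole length.

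Primed sites were intermediate in width. In control male liver they spanned a median of 540 bp (95% interval 529 to 557, counting error only), with quartiles of 379 and 732 bp and a largest width of 2504 bp. Constant peaks with H3K27ac in all lists had a median of 738 bp, those with H3K27ac in some lists 659 bp and those with H3K27me3 537 bp. Peaks without either mark that were missing from at least 1 H3K4me1 list had a median of 311 bp. A wider peak has more bases with which to overlap a peak of another list, so the rule itself bears on this order.

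The same sites were narrower in the female lists. Taking the widest overlapping peak, the median was 505 bp in control female liver, against 517 bp in male and 458 bp in female E1/E2-KO liver. The medians of the whole autosomal lists ran from 436 bp in control male and 437 bp in E1/E2-KO male to 433 bp in control female and 396 bp in E1/E2-KO female liver, so primed sites were wider than the typical peak of each list. Control male held the widest peak at 1009 sites, E1/E2-KO male at 829, control female at 714 and E1/E2-KO female at 486, with 10 ties. Between lists, the widths of the 3048 sites followed each other weakly, with Pearson's r from 0.25 to 0.36. These points share the peak caller and, in part, local read coverage.

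**Figure D1:**
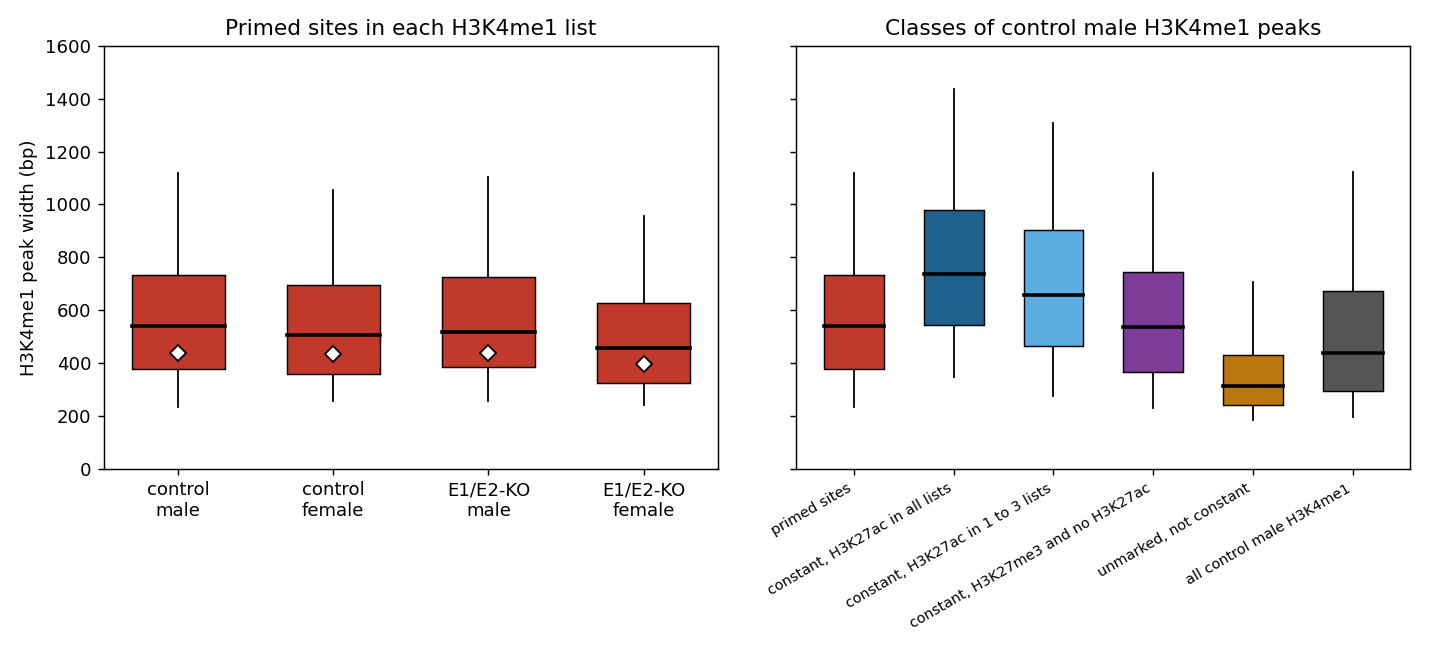
H3K4me1 peak width in bp. Left, the 3048 primed sites in each H3K4me1 list, with diamonds at the median of the whole autosomal list; right, classes of control male peaks. Boxes span the quartiles, thick lines are medians and thin lines run from the 5th to the 95th percentile. Primed sites have a median of 540 bp in control male liver, between 738 bp for constant peaks with H3K27ac in all lists and 311 bp for unmarked peaks that are not constant.

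The 5 widest primed sites lay close to H3K27ac. Over all primed sites the order was the other way, with a median width of 512 bp within 1 kb and 592 bp beyond 10 kb. The site of 2504 bp at chr10:80601493-80603996 was in an intron of Zbtb7a, a zinc finger repressor, 795 bp from the start and 321 bp from H3K27ac. Its widths in the other lists were 1524 bp in control female liver, against 1678 bp in male and 1151 bp in female E1/E2-KO liver. The Pcf11 site, in a gene for a transcription termination factor, was 1985 bp wide in control male and 438 bp in control female liver, and 454 bp in male and 1018 bp in female E1/E2-KO liver. Sites at Ptbp1, a splicing regulator, and Prdx6, a peroxiredoxin, were 1909 and 1886 bp wide, and the fifth, in an intron of Fbxw8, was 1825 bp wide. All 5 lay between 93 and 645 bp from an H3K27ac peak.

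Primed sites lay at a wide range of distances from H3K27ac, with a near and a distant mode. The median distance to the nearest H3K27ac peak of any list was 2202 bp (95% interval 1914 to 2631). Of the 3048 sites, 1235 (40.5%, Wilson 95% interval 38.8 to 42.3) lay within 1 kb of H3K27ac, 1048 between 1 and 10 kb and 765 (25.1%, 23.6 to 26.7) beyond 10 kb. Beyond 100 kb there were 85. With each H3K27ac list reduced to its widest peaks, in the number of the shortest list, the median was 6886 bp. The shares were then 27.1% within 1 kb and 41.0% beyond 10 kb. With the rule started from the female E1/E2-KO list, the median was 921 bp and the shares were 50.9% and 20.8%. Constant peaks with H3K27me3 lay farther away, with a median of 8961 bp and 23.7% within 1 kb, and showed a near and a distant mode as well. Unmarked peaks that were not constant had a median of 2429 bp and 36.1% within 1 kb. They also showed a near and a distant mode, with a shallower dip between. Their share per bin was 6.74% at 316 to 464 bp, 5.84% at 1000 to 1468 bp and 7.46% at 4642 to 6813 bp.

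By list, the median distance of primed sites to H3K27ac was 8633 bp in control male, 4885 bp in control female liver, against 4074 bp in male and 5180 bp in female E1/E2-KO liver. That order follows the number of H3K27ac peaks in the extremes, with the shortest list giving the largest distance and the longest list the smallest. At most of the near sites the neighbouring acetylation was shared by the groups, since 707 of the 1235 had H3K27ac within 1 kb in all 4 lists and 263 in 1 list alone. H3K27me3 was more remote, at a median of 26685 bp, with 99 sites within 1 kb.

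**Figure D2:**
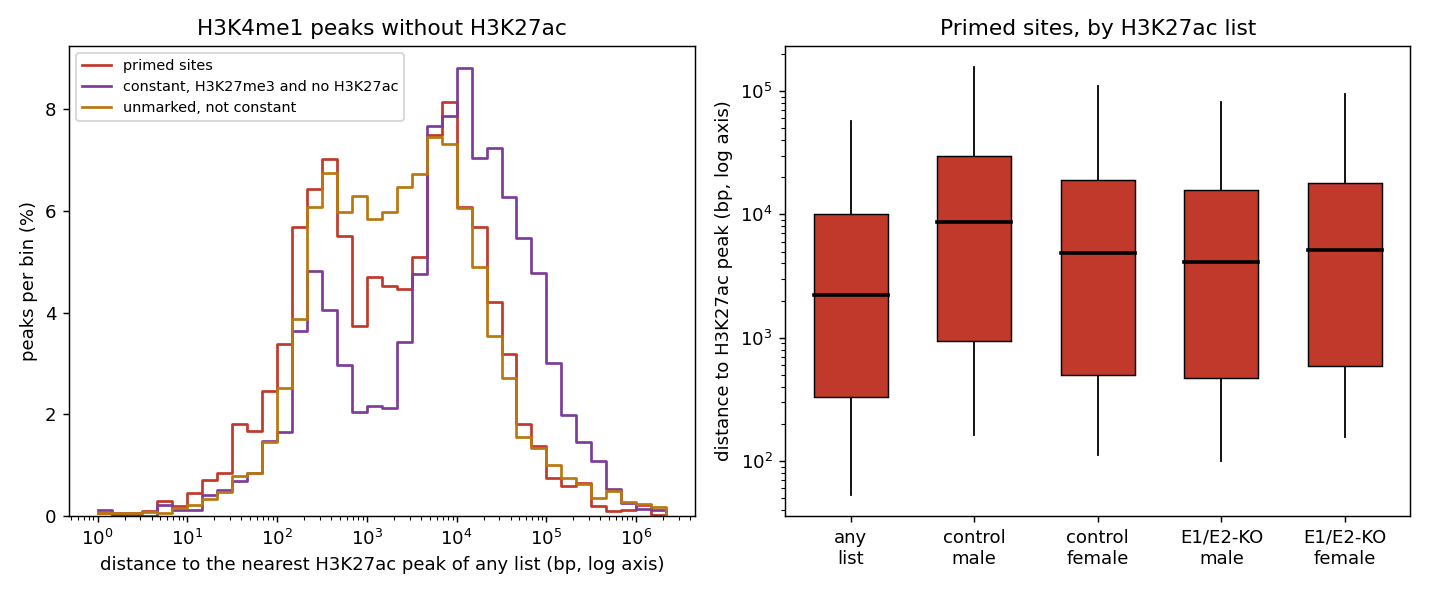
Distance in bp (log axes) from H3K4me1 peaks without H3K27ac to the nearest H3K27ac peak. Left, the share of each class per bin for any H3K27ac list; right, primed sites against each list, with boxes at the quartiles, thick lines at the median and thin lines from the 5th to the 95th percentile. Primed sites and constant peaks with H3K27me3 both show a near and a distant mode. Unmarked peaks that are not constant show them as well, with a shallower dip between. Of primed sites, 40.5% lie within 1 kb.

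The near and the distant sites differed in position. Near sites lay a median of 1404 bp from a protein-coding start, sites between 1 and 10 kb from H3K27ac lay 9211 bp away and those beyond 10 kb lay 34672 bp away. At 715 of the 1235 near sites (57.9%, 55.1 to 60.6) the nearest H3K27ac peak was itself within 1 kb of a start, against 34.4% and 23.0% in the middle and distant groups. Distant sites were wider, with a median of 592 bp against 512 bp for near sites, and fewer of them had another control male H3K4me1 peak within 1 kb, 14.5% against 45.1%. A closer H3K27ac peak limits how far a site can extend without overlap, so width and distance are not independent here.

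The 5 primed sites farthest from H3K27ac lay between genes. Of all 765 sites beyond 10 kb, however, 519 (67.8%) lay in a protein-coding gene span. Of the 5 farthest, 3 were on chromosome 15 nearest to Cdh9, a cadherin, the farthest at chr15:16178125-16178829, 2697338 bp from H3K27ac and 529027 bp from the Cdh9 start. Its width was 705 bp in control male, 573 bp in control female liver, against 643 bp in male and 363 bp in female E1/E2-KO liver. The other two lay nearest to Spanxn4 and to Cdh7, another cadherin. At the opposite end, the sites closest to H3K27ac were nearest to Fbxl19, Ank3, Ripk1, Ddx39b and Tada3, at 1 to 3 bp. Ripk1 is a kinase of cell death and inflammatory signalling, and Ank3 links membrane proteins to the cytoskeleton.

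Primed sites lay mostly inside genes. The median distance to a protein-coding start was 8774 bp, and 615 sites (20.2%, 18.8 to 21.6) lay within 1 kb of a start. The median was 17983 bp with peaks within 1 kb of H3K27ac or H3K27me3 left out. It was 4835 bp with the rule started from the female E1/E2-KO list. With those near peaks left out, the share within 1 kb of a start was 8.55%. With the widest 50% of each H3K4me1 list it was 27.1%. As reported, the share was 41.3% for constant peaks with H3K27ac in all lists, 20.7% for those with H3K27ac in some, 30.1% for those with H3K27me3, 11.3% for unmarked peaks that were not constant and 23.4% for all control male peaks. A protein-coding gene span contained or touched 2270 primed sites (74.5%, 72.9 to 76.0), against 63.1%, 59.5% and 54.9% for these constant classes and 73.0% for unmarked peaks that were not constant. Introns alone held 1839 primed sites (60.3%) and 431 (14.1%) touched an exon.

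Around starts, primed sites favoured the downstream flank. Their midpoints were most frequent 1000 to 1500 bp downstream, where 233 sites lay. Within 5 kb of a start, 925 midpoints were downstream and 402 upstream, so 69.7% were downstream (67.2 to 72.1), against 60.2% of all control male peaks and 70.9% of constant peaks with H3K27ac in all lists. The midpoint lay within 500 bp of a start at 164 primed sites (5.38%), against 13.8% with H3K27ac in all lists, 22.4% with H3K27me3 and 4.11% of unmarked peaks that were not constant.

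**Figure D3:**
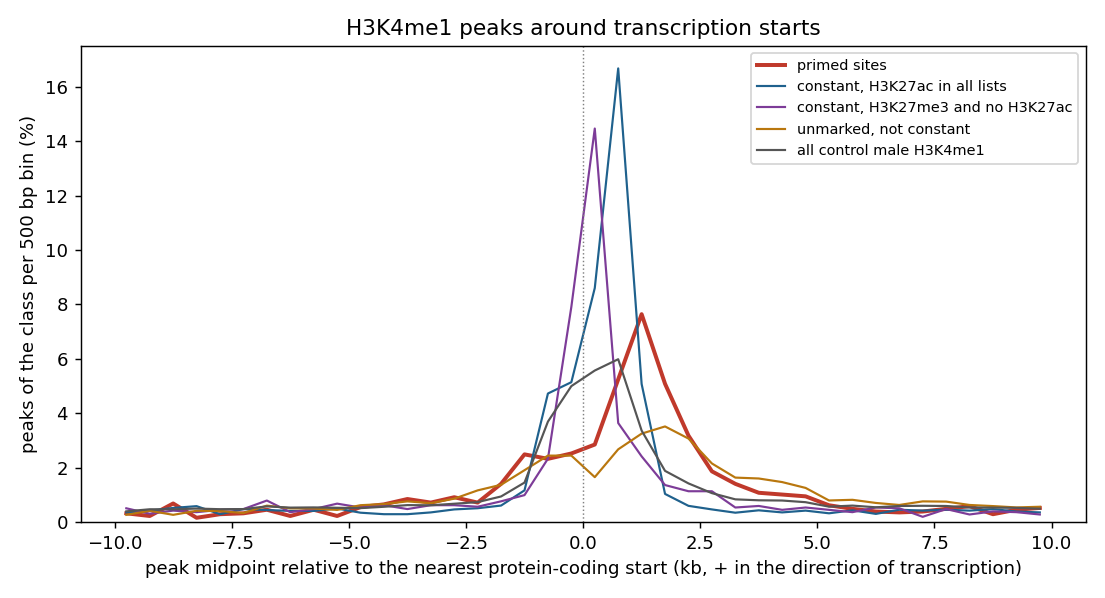
Share of H3K4me1 peaks of each class in 500 bp bins of midpoint distance (kb) from the nearest protein-coding start, positive in the direction of transcription. Lines are classes of control male peaks. Primed sites are most frequent 1000 to 1500 bp downstream, farther out than constant peaks with H3K27ac in all lists. Unmarked peaks that are not constant are most frequent still farther out, 1500 to 2000 bp downstream (3.52%).

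Primed sites were spread over many genes, mostly 1 to a gene. Of 21418 autosomal protein-coding genes, 1856 held a primed site in their span, which is 8.67%. Most of them, 1523, held 1 site and 249 held 2. H3K27ac lay within 1 kb of a start in all 4 lists at 1595 of the 1856 genes (85.9%), where the share over all genes is 47.6%, and it is 69.7% over genes with any control male H3K4me1 peak. H3K27me3 in any list covered a start region at 32.4% of genes with a primed site and at 53.2% of all genes. The rule excludes sites in H3K27me3 regions, which have medians of 23.6 to 31.6 kb, and it also used the H3K27ac lists, so the selection bears on both start shares, which are given as a description with nothing read from them. Genes with a primed site were long, with a median span of 52.1 kb. The median is 15.5 kb over all genes and 25.8 kb over genes with any control male H3K4me1 peak.

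The largest counts were in long genes, although long genes held the fewest sites per base. The rate fell from 0.672 sites per 100 kb in genes up to 10 kb to 0.112 in genes over 300 kb. Immp2l, a subunit of the mitochondrial inner membrane peptidase, held 9 in 1305899 bp, and 7 of them lay beyond 10 kb from H3K27ac. The site at chr12:42694031-42694870, whose sequence is given above, was 257628 bp from H3K27ac and measured 840 bp in control male, 1184 bp in control female liver, against 241 bp in male and 445 bp in female E1/E2-KO liver. Magi1, a scaffold of cell junctions, held 7 in introns, 4 of them beyond 10 kb. Its site at chr6:93778117-93779221 was chosen for its sequence and measured 1105, 1061, 1111 and 1158 bp in the same order of groups. Pde4d, a cAMP phosphodiesterase, also held 7, of which 1 lay beyond 10 kb. Per 100 kb, Mitf led the genes with 5 or more sites at 2.33, followed by D18Ertd653e at 1.86, Magi1 at 1.15, Dennd1a at 1.02 and Rabgap1l at 0.871. Over all genes the figure was 0.240 sites per 100 kb. This order depends on the overlap asked for, since with 50% overlap Immp2l and Pde4d held 4, Magi1, Mitf and Rabgap1l 3, Dennd1a 4 and D18Ertd653e 5. Pard3b and Ptprd also held 5 sites, at lower rates than Mitf, Dennd1a and Rabgap1l. Neighbouring Pard3b sites of 251 and 495 bp had equal widths in each of the other lists, so that count may split 1 broader peak. Gm20388, Arfip1 and Fgfr2 entered the first 10 with 7, 6 and 6 sites, but the annotated spans of Arfip1 and Fgfr2 are 16.1 and 28.8 times the RefSeq gene length and Gm20388 has no RefSeq match.

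Mitf, a transcription factor best known for melanocytes and lysosomal genes, is shown as 1 locus. It had the most sites per 100 kb among the genes with 5 or more sites. None of its sites lay within 1 kb of H3K27ac, unlike 40.5% of all primed sites. Its 5 primed sites were intronic, between 45.1 and 195 kb from the first base of the gene. The site at chr6:97921035-97921530 measured 496 bp in control male, 1010 bp in control female liver, against 453 bp in male and 530 bp in female E1/E2-KO liver. H3K27ac lay 8751 bp from it and 39224 bp from the most downstream site. H3K27ac peaks in the span numbered 1 in control male, 4 in control female liver, against 7 in male and 3 in female E1/E2-KO liver, and all 4 lists marked the first start. One site came within 160 bp of an H3K27me3 region, which was called in control female liver.

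**Figure D4:**
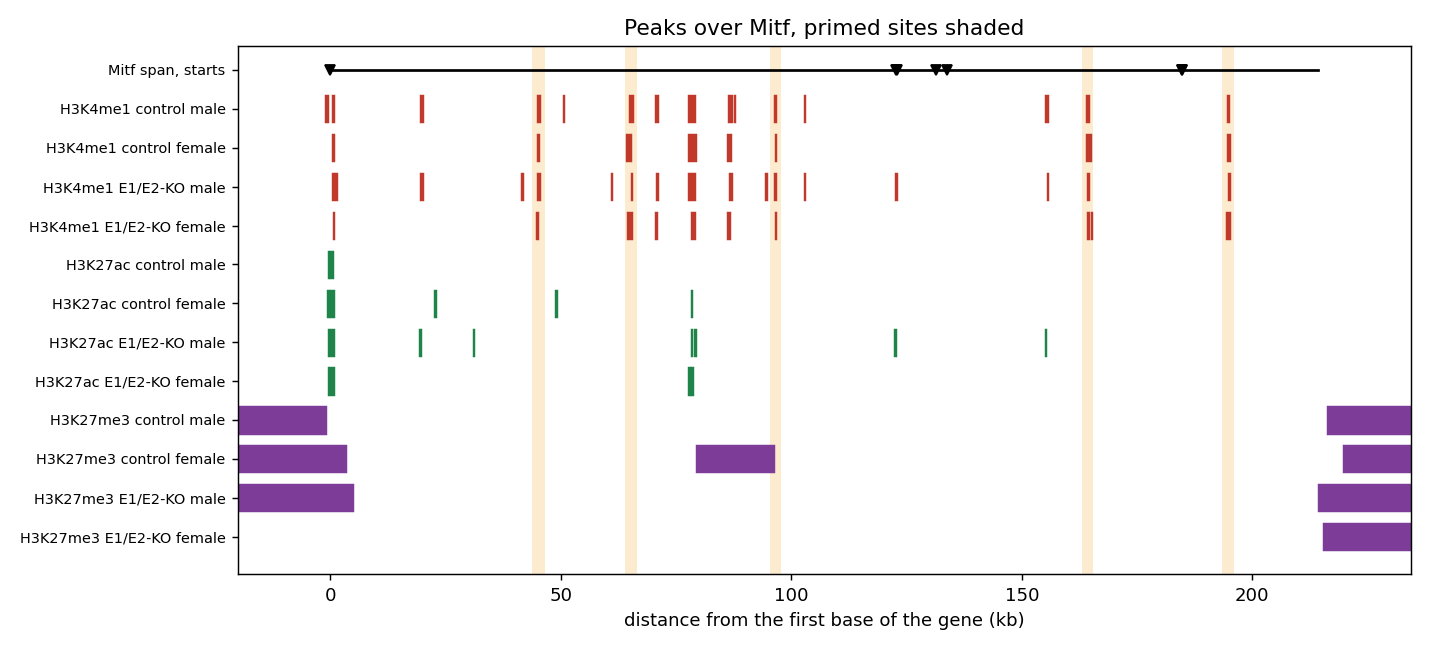
Peaks of the 12 lists over Mitf, plotted as distance in kb from the first base of the gene. Rows are mark and group, triangles are annotated starts and pale bands, widened by 1 kb on each side, are the 5 primed sites. Each band holds H3K4me1 in the 4 upper rows and no H3K27ac or H3K27me3 peak overlaps a primed site.

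Gene lists differed in how many members held a primed site, against 8.67% of all genes. That share itself rose with gene length, from 2.56% of genes with spans up to 10 kb and 7.25% between 10 and 30 kb to 13.3% between 30 and 100 kb, 23.7% between 100 and 300 kb and 31.0% above 300 kb, so each count is to be read with the spans of its list. Of 20 clock genes, 6 held a site (Wilson 95% interval 14.5 to 51.9%), at a median span of 31.6 kb. Arntl, the partner of Clock, held 2 sites in introns, 5798 and 7858 bp from H3K27ac, and Npas2, which can replace Clock, held 2 sites 12872 and 13458 bp away. Nr1d2, a repressor of Arntl, held a site of 1044 bp in control male, 883 bp in control female liver, against 1091 bp in male and 832 bp in female E1/E2-KO liver. Cry1, Bhlhe40 and Rora held 1 each.

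Of 19 actin and adhesion genes matched, 7 held a site (36.8%, 19.1 to 59.0), with 16 sites in all, 7 of them in Magi1. Arhgap26 held 3, Exoc4 of the exocyst held 2, and Magi3, Itgb1, Rock2 and Ctnna1 held 1 each. These genes are long, with a median span of 117 kb. Their rate of 0.350 sites per 100 kb compares with 0.240 over all genes and 0.201 over genes of 100 to 300 kb. That rate rests largely on Magi1, which holds 7 of the 16 sites in 607868 bp of a total span of 4.57 Mb. Of 25 hepatocyte transcription factors, Zbtb20, a repressor of fetal liver genes, held 3 sites and Rora held 1, at 0.176 per 100 kb for the list. Among 25 lipid and glucose genes, Ppargc1b, a transcriptional coactivator of energy metabolism, held 3 sites and Cpt1a, the rate-limiting enzyme of mitochondrial fatty acid uptake, held 1. Neighbouring Ppargc1b sites of 282 and 836 bp in control male liver had equal widths in male (1098 bp) and female (541 bp) E1/E2-KO liver. The count of 3 may therefore split 1 broader peak of those lists.

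Of 25 growth hormone and insulin signalling genes, 1 held a primed site (Wilson 95% interval 0.710 to 19.5%, which includes the share over all genes). It was Igf1, the circulating growth factor that growth hormone induces in liver, with 2 sites. The first overlapped its start and measured 801 bp in control male, 313 bp in control female liver, against 279 bp in male and 325 bp in female E1/E2-KO liver. It lay 761 bp from H3K27ac, and the second site 1889 bp. Of the 25 genes, 24 had H3K27ac within 1 kb of a start in all 4 lists, where the share over all genes is 47.6%. Of 98 cytochromes P450, Cyp2d10 and Cyp2j9 held 1 site each (2.04%, 0.561 to 7.14), at a median span of 22.1 kb. Of the 98, 42 had no H3K27ac within 1 kb of a start in any list, as had 41.3% of all genes. Of 17 Wnt and zonation genes, Tcf7l2, a transcription factor of Wnt signalling, held 2 and Znrf3, which removes Wnt receptors from the cell surface, held 1. That share of 11.8% (3.29 to 34.3) includes the share over all genes in its interval.

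For stellate, Kupffer cell and macrophage, lymphocyte, bile duct, endothelial and neuronal markers, the shares could not be told from the 8.67% over all genes at these list sizes. None of 15 stellate, 15 Kupffer cell and macrophage, 13 lymphocyte or 8 bile duct genes held one, which allows a share of up to 20.4%, 20.4%, 22.8% and 32.4% by the Wilson interval. Most of the stellate (9), Kupffer cell and macrophage (12) and lymphocyte (10) genes had no H3K27ac within 1 kb of a start in any list. The share over all genes is 41.3%, and these counts were not tested against it. Of 18 endothelial genes, Nrp1 and Stab2 held 1 each, and of 14 neuronal genes, with a median span of 420 kb, Syt1 and Nrxn3 held 1 each. Ribosomal protein symbols held a site in 15 of 138 (10.9%, 6.70 to 17.2), at a median span of 2.18 kb, where 2.56% of all genes with spans up to 10 kb held one. These symbols do not serve as a set of uniformly active genes here, since 74 had H3K27ac within 1 kb of a start in all 4 lists and 56 in none. Over all genes these shares are 47.6% and 41.3%. That symbol rule also takes in Rps6kc1 and Rpl7l1, which are not ribosomal subunits. Whether the other symbols are all functional ribosomal protein genes was not checked. These counts therefore describe symbols and give no share for ribosomal protein genes as such.

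The base composition of primed sites was close to that of unmarked peaks that were not constant. Their 300 bp windows had a median GC content with a 95% interval of 44.7 to 45.3% and a CpG ratio, observed over expected, of 0.176. Constant peaks with H3K27ac in all lists had 48.3% and 0.239, those with H3K27me3 51.3% and 0.336, unmarked peaks that were not constant 44.7% and 0.169, all control male peaks 47.3% and 0.218, and windows 5 kb to the right of primed sites 43.0% and 0.172. The 15 motifs were searched on both strands with the letters TGTTTAC for FOXA, the letters CAAAGTCCA for HNF4A, the letters TTGCNNAA for C/EBP, the letters GTTAATNAT for HNF1, the letters AGGTCANAG for DR1, the letters TGANTCA for AP-1, the letters GAGGAAGT for PU.1, the letters AGATAAG for GATA, the letters AGNNGGCGC for CTCF, the letters TTCNNNGAA for STAT, the letters CACGTG for E-box, the letters GGGCGGG for GC box, the letters GAAANNGAA for IRF, the letters ACATTCC for TEAD and the letters TGACGTCA for CRE. The letters used for DR1 cover only part of that element and are called partial DR1 here. Matches of different motifs could overlap.

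Of the 15 motifs, 8 had a higher share in primed sites than in all control male peaks. For 4 of these, FOXA, HNF4A, partial DR1 and IRF, the share of all peaks lay inside the primed interval. C/EBP letters, named for a factor family of hepatocytes, were in 17.0% of primed windows (15.7 to 18.4), 14.1% of all peaks, 13.1% of constant peaks with H3K27ac in all lists and 13.3% of windows 5 kb away. GATA letters were in 5.91% (5.12 to 6.80), against 4.29%, 3.81% and 4.76% in the same order, and HNF1 letters in 2.03% (1.59 to 2.60) against 1.15%, 0.821% and 0.951%. With the rule started from the female E1/E2-KO list, HNF1 letters were in 1.25% and C/EBP letters in 15.2% of windows, and started from the male E1/E2-KO list GATA letters were in 4.90%. FOXA letters were in 5.91% of primed windows (5.12 to 6.80) and 3.67% of windows 5 kb away, but the shares of all control male peaks (5.35%) and unmarked peaks that were not constant (6.41%) lay inside the primed interval. STAT letters were in 10.6% of primed windows (9.55 to 11.7), against 9.30% of all peaks. Windows 5 kb away (9.68%) and unmarked peaks that were not constant (10.2%) lay inside that interval. The latter peaks held C/EBP letters at 15.3%, GATA at 4.81% and HNF1 at 1.40%. In 32851 RefSeq promoters of GRCm38.p6, also 300 bp long, C/EBP letters were in 10.8%, GATA in 3.04%, HNF1 in 0.801% and FOXA in 3.65%.

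GC-rich letters were scarcer than in all peaks, though not than in nearby sequence. GC box letters were in 2.33% of primed windows (1.85 to 2.93) and CTCF letters in 0.820% (0.556 to 1.21), against 5.36% and 2.18% of all peaks and 25.6% and 7.23% of promoters. Windows 5 kb away held them at 1.80% and 0.886%, and unmarked peaks that were not constant at 1.80% and 0.725%. Base composition differed between these sets, and its part in the shares was not tested. Among primed sites, several motifs had a higher share in distant than in near sites, and this was not particular to hepatocyte factors. C/EBP letters were at 20.4% against 15.2%, HNF1 at 3.79% against 1.30% and HNF4A at 2.48% against 0.567%, while STAT letters were at 13.5% against 9.23%, AP-1 at 10.1% against 7.29% and IRF at 11.1% against 9.23%. These differences were not tested.

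**Figure D5:**
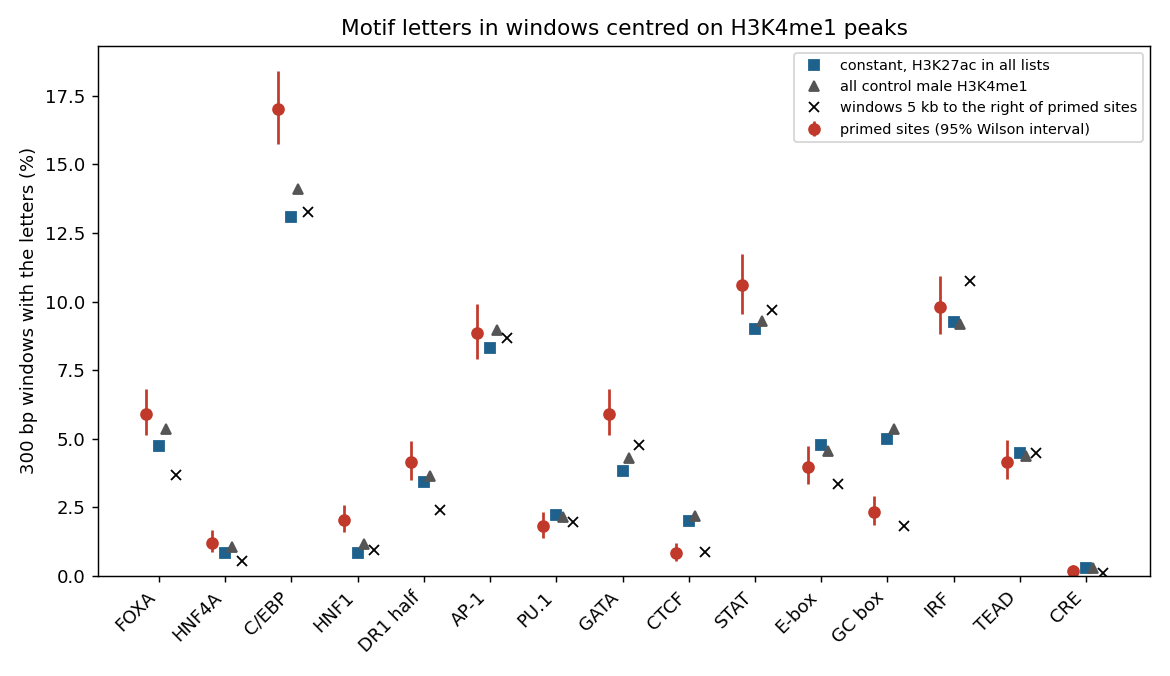
Percent of 300 bp windows holding the letters of each motif. Circles are primed sites with Wilson 95% intervals, squares are constant peaks with H3K27ac in all lists, triangles are all control male peaks and crosses are windows 5 kb to the right of primed sites. C/EBP letters reach 17.0% in primed sites and GC box letters 2.33%.

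Primed sites were spread over all 19 autosomes. Their share of the control male peaks ran from 3.58% (3.04 to 4.22) on chromosome 9 to 5.96% (5.23 to 6.77) on chromosome 10. Most stood alone, as 411 (13.5%) had another primed site within 10 kb and 166 within 1 kb, whereas 2278 (74.7%) had some other control male H3K4me1 peak within 10 kb.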

How the data were processed

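H3K4me1, H3K27ac and H3K27me3 were measured by ChIP-seq in mouse liver. The authors aligned reads to mm9 with Bowtie2 (2.3.2) and called peaks on reads pooled per group, with MACS2 (2.1.1) for H3K4me1 and H3K27ac and SICER (1.1) for H3K27me3. The deposited lists give positions only, with no score or count, so intervals cover counting error alone. SICER ends were extended by 1 bp to include the last base. No peak ran past a chromosome end of NCBIM37.

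Overlaps, distances and motif letters were computed in Python 3.11.15 with NumPy 2.4.6 and SciPy 1.17.1. A distance of 1 bp means touching peaks, and the distance to a start is 0 on overlap. Starts and spans are those of protein-coding genes in GENCODE M1, of which 20593 of 21418 matched RefSeq by symbol. Shares carry Wilson 95% intervals and medians order-statistic intervals. The rule was tested on simulated data, where 1020 of 1020 planted sites were found among 4000 peaks.

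The text names the 10 genes with most sites (ties by sites per 100 kb), the 5 with most per 100 kb among genes with 5 or more, the 5 widest sites, the 5 farthest from and the 5 closest to H3K27ac, and up to 4 genes per list, with further list members that held a site given by count. The printed windows are those with most different motifs outside UTRs, 1 per gene. A sixth, in Gm20388, was left out for its uncertain gene model. The members and lists were chosen with earlier results of these data known. Alternatives changed the overlap, the starting list, the excluding lists, the gene models and the window. One member of the lipid and glucose list is not reported here.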

Additional observations from a re-analysis of the deposited data

How the results depend on the processing

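Primed sites numbered 3048 as reported. Requiring 50% overlap gave 1770 sites with a median width of 487 bp in 1171 genes. Leaving out peaks within 1 kb of H3K27ac or H3K27me3 gave 1767 sites, 560 bp wide, 8249 bp from H3K27ac and 17983 bp from a start, in 1057 genes. Merging H3K4me1 peaks within 1 kb gave a width of 643 bp and 4070 bp to H3K27ac. Starting from the list of control female, of male E1/E2-KO or of female E1/E2-KO liver gave widths of 470, 488 and 433 bp, distances to H3K27ac of 1399, 1443 and 921 bp and distances to a start of 6825, 6329 and 4835 bp. The widest 50% of each H3K4me1 list gave 796 sites, 728 bp, 2895 bp to H3K27ac and 5972 bp to a start, in 598 genes. Exclusion by the 4 control lists alone gave 5524 sites, 567 bp, 5333 bp and 13251 bp. H3K27ac lists reduced to their widest peaks in the number of the shortest list gave 4972 sites, 568 bp, 6886 bp and 13576 bp. Starts of all genes lay 6470 bp away, and spans extended by 10 kb gave 2869 genes. The cause of these shifts was not tested. Without gene models over 3 times the RefSeq length or without a RefSeq match, an alternative chosen after seeing the data, 1814 genes held a site.

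No paired analysis was possible because reads of a group were pooled into 1 list. Leaving out a replicate was not possible for the same reason. Depth is unknown, so absence of a peak does not show absence of the mark.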
